A study of Homo sapiens with 9 samples.

Results

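Cytosolic ribosomal protein genes encode the protein part of the ribosome of the cytoplasm. The genes described here were all genes of the count table with the symbol of a large-subunit (RPL), small-subunit (RPS) or stalk (RPLP) protein, together with RPSA. S6 kinase genes and pseudogene symbols were left out. The rule used symbols and no measured value, and it found 83 genes of the 20777 listed: 43 of the large subunit, 31 of the small subunit, 3 of the stalk and 6 paralogues. The paralogues are genes whose symbol is that of another member followed by L or L1 (RPL3L, RPL7L1, RPL22L1, RPL26L1, RPL39L and RPS27L). FAU and RPL36AL, which also encode ribosomal proteins, and RACK1, a protein of the small subunit, fall outside the symbol rule.

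RNA was measured in LX-2 cells, an immortalised human line derived from hepatic stellate cells, the cells that lay down scar matrix in the liver. The control group was untreated, the TGF-β group received TGF-β, a cytokine that activates stellate cells, and the TGF-β + uridine group received TGF-β and the nucleoside uridine. The labels place both treatments on day 1, and the methods place uridine in fresh medium after the TGF-β exposure. Each group had 3 libraries. All cells carried the unmodified genotype of the line, and a single line in culture lacks the other cells of a liver. Nothing in the labels says that libraries of a group came from separate cultures, so that p-values measure the spread between these libraries, which may be technical.

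Each ribosome holds a single copy of nearly all of its proteins, and growing cells devote a large part of their mRNA to making them. In vertebrates the mRNAs of these proteins share a 5′ terminal oligopyrimidine (TOP) tract: the first base is a C and a run of C and T follows. Through this tract the kinase mTORC1 and the protein LARP1 control the translation of the family together. Ribosomal proteins that are not built into ribosomes can bind MDM2, and RPL5 and RPL11 are the best known of them.

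The sequences at annotated start sites were searched for this shared feature. RefSeq start sites on GRCh38.p14 were matched by symbol for 66 of the 83 genes. A tract was counted where the first base was C and at least 5 bases from the start on were C or T. The start was taken at the annotated base, so a tract beginning some bases away was not counted. In RPL19, for example, a run of C and T crosses the annotated start. Genes without a tract by this rule may therefore carry one. By this definition 47 of the 66 genes (71.2%) had a tract at a start, against 5.14% of all 27305 genes in the RefSeq table, and the tracts were 5 to 19 bases long. It was present in 25 of 35 large-subunit genes, 18 of 24 small-subunit genes and all 3 stalk genes, but in 1 of 4 paralogues. Printed here are 10 bases before the start and the first 20 transcribed bases, with the tract in capitals. The first set gives the paralogues that had a RefSeq start, 3 of them with the gene they resemble, since RPS27L later stands apart in its level.
RPS27 (chr1:153990752-153990781, plus strand): cgctttcgctCCTTTCCggcggtgacgacc
RPS27L (chr15:63157458-63157487, minus strand): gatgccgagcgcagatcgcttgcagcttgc
RPL26 (chr17:8383174-8383203, minus strand): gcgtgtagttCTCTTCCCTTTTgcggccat
RPL26L1 (chr5:172958719-172958748, plus strand): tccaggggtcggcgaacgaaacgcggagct
RPL22 (chr1:6199576-6199605, minus strand): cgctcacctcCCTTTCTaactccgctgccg
RPL22L1 (chr3:170870176-170870205, minus strand): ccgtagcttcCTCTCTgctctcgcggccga
RPL7L1 (chr6:42879606-42879635, plus strand): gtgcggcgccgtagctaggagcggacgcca

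RPS27 and RPL26 began with tracts of 7 and 12 bases, while RPS27L, RPL26L1 and RPL7L1 had no tract in this window. RPL22L1 began with a tract of 6 bases. The second set shows the 3 stalk genes, RPS6, RPL31 and RPL11, which the results return to, and RPL39 and RPL41, which had the longest and the shortest tract.
RPLP0 (chr12:120201092-120201121, minus strand): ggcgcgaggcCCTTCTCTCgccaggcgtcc
RPLP1 (chr15:69452808-69452837, plus strand): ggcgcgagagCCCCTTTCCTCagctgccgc
RPLP2 (chr11:809957-809986, plus strand): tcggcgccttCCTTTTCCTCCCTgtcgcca
RPS6 (chr9:19380217-19380246, minus strand): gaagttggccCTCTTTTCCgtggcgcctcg
RPL31 (chr2:101002279-101002308, plus strand): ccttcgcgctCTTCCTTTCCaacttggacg
RPL11 (chr1:23691796-23691825, plus strand): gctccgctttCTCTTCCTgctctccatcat
RPL39 (chrX:119791611-119791640, minus strand): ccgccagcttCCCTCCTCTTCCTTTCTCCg
RPL41 (chr12:56116623-56116652, plus strand): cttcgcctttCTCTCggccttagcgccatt

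A second motif, CCGGAAG on either strand, was found in the 300 bases around the start (250 before, 50 after) of 36.4% of the 66 genes and of 12.2% of all genes in the table. TATAAA on either strand was found in 9.09% and 14.0%. These matches are descriptions of sequence, and no factor was measured.

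Ribosomal protein mRNAs were among the most abundant in LX-2 cells. Levels between genes are given as FPKM (fragments per kilobase of gene model, scaled to library size), the only scale here that divides by length. Of the 100 listed genes with the highest mean FPKM over the 9 libraries, 41 were members, and 73 members had a mean of at least 100 FPKM. The middle one of the 77 genes other than the paralogues had a mean of 769 FPKM, and the quartiles lay at 354 and 1359 FPKM. The highest was RPS2 of the small subunit with 7902 FPKM. RPLP0, the protein on which the stalk is built, followed with 4676 FPKM. The stalk partners RPLP2 and RPLP1, which bind RPLP0 as dimers, had 2682 and 1796 FPKM. The family therefore did not have equal mRNA levels on this scale. The gene lengths implied by the deposited tables ran from 390 to 7573 bases among these genes, and a model longer than the mRNA in the cell lowers its FPKM.

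**Figure D1:**
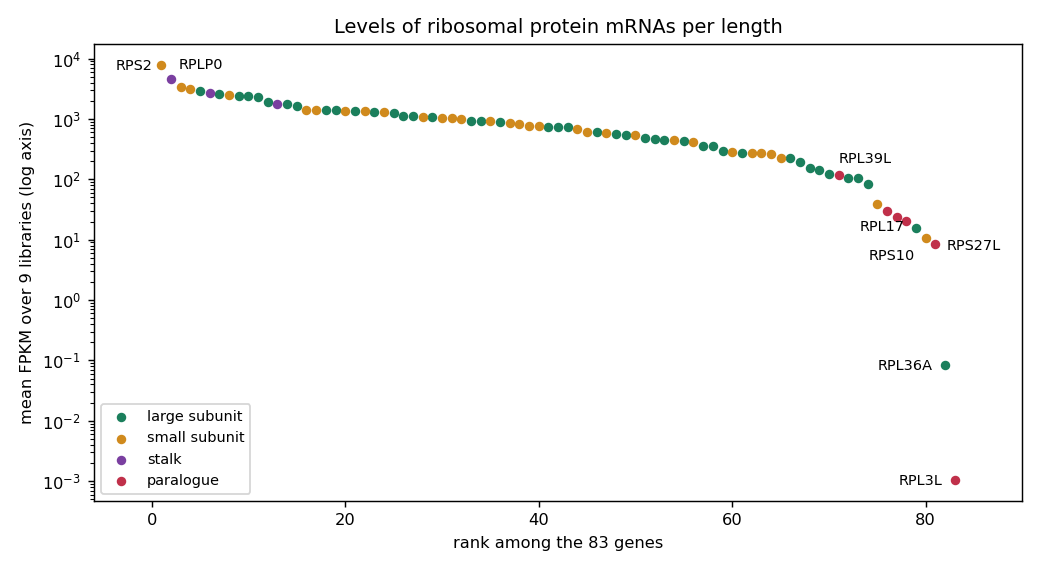
Mean FPKM over the 9 libraries (vertical, log axis) of the 83 genes in order of level (horizontal, rank), coloured by subunit. RPS2 is highest at 7902 FPKM, 73 genes lie at or above 100 FPKM, and RPL36A and RPL3L lie apart at the bottom.

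The genes at the bottom were of 2 kinds. RPL3L, the muscle form of RPL3, had 1 read in 1 TGF-β library and 0 in the other 8. For 0 reads an upper limit was set at 3 reads, which is at most 0.0740 CPM (read counts scaled to library size). RPL36A had 0 to 8 reads per library, RPS10 249 to 440 reads and RPL17 603 to 859 reads, although each is a core protein of its subunit. These 3 genes share sequence with an annotated readthrough gene that runs on into the next gene (RPL36A-HNRNPH2, RPS10-NUDT3 and RPL17-C18orf32). In GENCODE v29, exons of the readthrough gene cover 67.3% of the coding bases of RPL36A, 56.9% of those of RPS10 and 98.2% of those of RPL17. The readthrough symbols were not among the listed genes, and how reads shared by overlapping genes were counted is not given in the sources used here. The levels of these 3 genes are therefore uncertain, and the part of the shared exons in them was not tested. The pseudogene RPSAP58, a copy of RPSA by its symbol, was also listed (7073 to 10193 reads per library). Whether it took reads of RPSA was not tested.

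The paralogues were far below the genes they resemble. On the FPKM scale RPS27L was at 0.637% of RPS27, RPL7L1 at 4.96% of RPL7, RPL26L1 at 6.75% of RPL26, RPL39L at 7.12% of RPL39 and RPL22L1 at 19.1% of RPL22. These ratios depend on the implied gene lengths. In reads, which are not divided by length, RPS27L had 4.59 to 10.1 per 100 RPS27 reads over the 9 libraries. RPL39L, known from testis and from tumour cells, was the most abundant of them with 117 FPKM. RPL3L and RPL36A had too few reads to be tested, so that 81 of the 83 genes entered the tests, 5 paralogues among them.

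All 83 genes together took 9.86%, 8.89% and 8.32% of the reads in the 3 control libraries. In the TGF-β libraries they took 8.79%, 8.87% and 8.68%, and in the TGF-β + uridine libraries 8.44%, 9.02% and 8.47%. The treated libraries lay within the range of the control libraries. The large subunit took 4.12% to 4.73% of reads over the 9 libraries, the small subunit 3.35% to 4.08% and the stalk 0.728% to 1.02%. Small-subunit reads per large-subunit read were 0.825 ± 0.0339 (SD, n = 3) in control, 0.837 ± 0.00898 in TGF-β and 0.835 ± 0.00692 in TGF-β + uridine. The balance between the subunits thus differed by less than the spread of the control libraries. In bulk RNA, a change in the number of cells and a change in RNA per cell cannot be told apart.

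A few facts of the whole series bear on every comparison. Libraries held 40539751 to 41467124 reads on genes. Of 10 tested stellate and fibroblast markers, 4 were called higher in TGF-β than in control (background 2.42%) and 6 in TGF-β + uridine (2.89%), while the 3 listed hepatocyte markers had 0 to 12 reads in each library. Of the markers of other cell types, the biliary and epithelial keratin KRT7 had 65298 to 128005 reads and the macrophage marker CD68 1181 to 1580, while EPCAM had 0 to 5 and PTPRC was not listed. The endothelial cadherin CDH5 had 11, 45 and 25 reads in control and 2, 0 and 3 in TGF-β (edgeR adjusted p = 0.0314, lower). PECAM1, the other endothelial marker tested, stood the other way, with 51, 38 and 48 reads in control, 90, 106 and 66 in TGF-β and 114, 93 and 107 with uridine, and was not called. The part of these genes in the results was not tested. COL1A2 was at 0 or 1 read in every library and LRAT was not listed, so these 2 stellate cell markers were absent or at the limit of detection. Control replicate 1 stood apart from the other libraries: per unit of gene GC content (the fraction of G and C bases), log2 level rose by 5.65, against -4.10 in control replicate 3 and -0.32 to 0.54 in the TGF-β group. The TGF-β + uridine libraries had slopes of -0.50, 2.28 and -2.69, a wider range than in TGF-β. The TMM scaling factor of control replicate 1 was 0.820, the lowest of 9, and mitochondrial transcripts made up 16.5% of the reads of this library, against 11.1% to 13.6% elsewhere.

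Control replicate 1 also stood apart in the levels of the members. Per-sample values from here on are CPM, read counts scaled to library size after TMM, which compare 1 gene between libraries and not genes with each other. Each gene's log2 CPM was set against its own mean over the 9 libraries. The median of the 81 genes was 0.42 in control replicate 1, -0.01 in control replicate 2 and -0.24 in control replicate 3. It was 0.03, 0.04 and -0.03 in the TGF-β libraries and -0.11, 0.13 and -0.17 in the TGF-β + uridine libraries. Control libraries thus differed more among themselves than the group medians did. The SD of a member within a group had a median of 0.37 on the log2 scale in control, 0.05 in TGF-β and 0.16 in TGF-β + uridine.

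**Figure D2:**
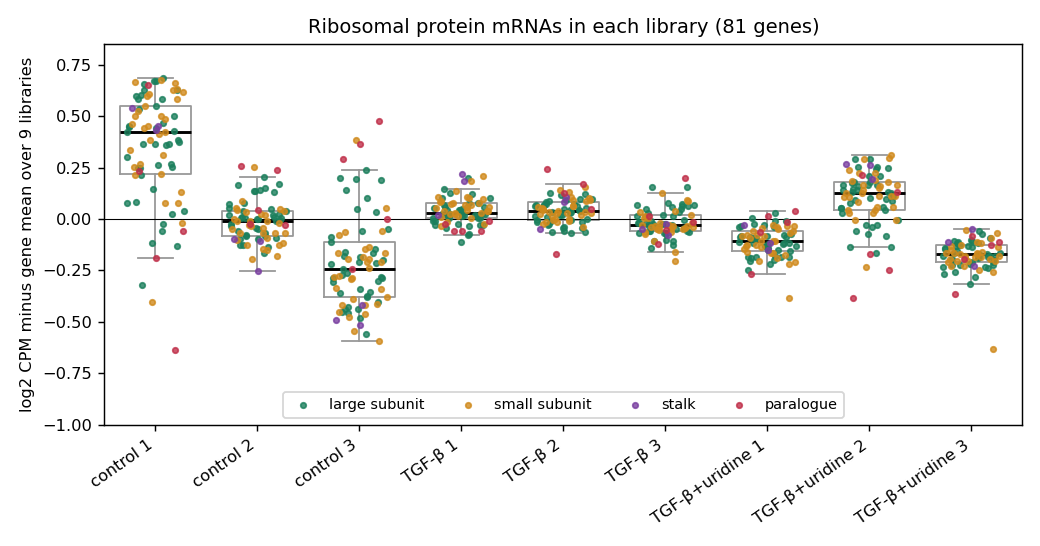
Log2 CPM of each of the 81 tested genes minus its mean over the 9 libraries (vertical) in each library (horizontal); points are genes coloured by subunit, boxes give the quartiles and the thick line the median. Medians run from 0.42 in control replicate 1 to -0.24 in control replicate 3, and the 3 TGF-β libraries lie within 0.04 of 0.

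Between control replicates 1 and 3, 68 genes were higher in replicate 1 and 13 were lower. RPS2 was 2.20-fold higher in replicate 1 and RPLP0 2.05-fold. RPL7L1 was at 0.464-fold and RPS24 at 0.579-fold. The 14 genes that were at least 1 log2 unit higher had a median GC content of 56.2%, and the 13 lower ones of 43.2%. Across the 81 genes, the correlation (Pearson's r) between GC content and a gene's deviation was 0.59, -0.58 and -0.59 in control replicates 1 to 3, 0.28, -0.46 and -0.55 in the TGF-β libraries and -0.11, 0.57 and 0.21 in the TGF-β + uridine libraries. In TGF-β + uridine replicate 3 the sign for the members (0.21) was opposite to that of the slope over tested genes (-2.69). These correlations are across genes of 1 library that share its depth and composition, and are given as a description.

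**Figure D3:**
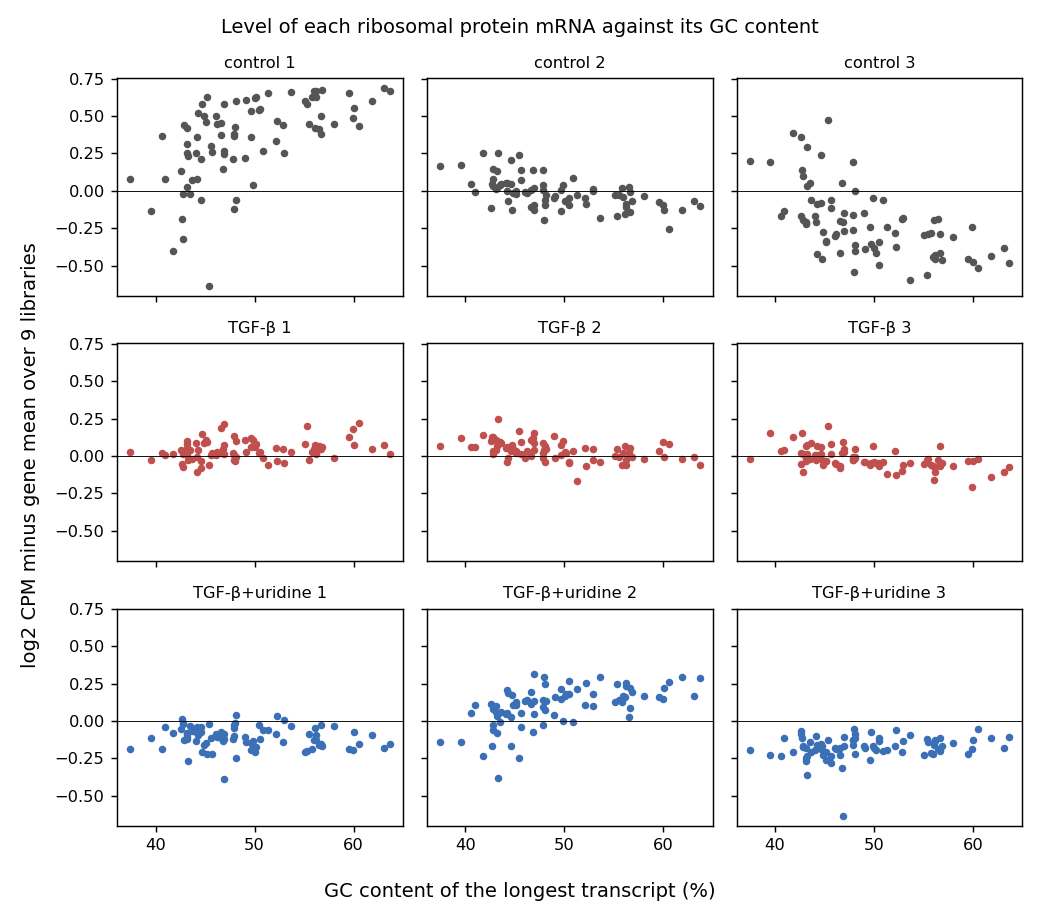
Each panel is 1 library; each point is 1 of 81 genes, with the GC content of its longest transcript in percent (horizontal) against its log2 CPM minus its mean over the 9 libraries (vertical). The trend is upward in control replicate 1, TGF-β replicate 1 and TGF-β + uridine replicates 2 and 3, and downward in the other 5 libraries (r from 0.59 to -0.59, and -0.11 in TGF-β + uridine replicate 1).

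The comparison of TGF-β with control asks whether stellate cell activation changed the ribosomal protein mRNAs. No member was called higher or lower (edgeR quasi-likelihood test, Benjamini-Hochberg adjusted p below 0.05), where 2.42% of the 13384 tested genes were called higher and 0.964% lower. DESeq2 called 0 members as well (background 3.13% higher and 1.76% lower), as did limma on log2(FPKM + 1) of genes with a mean of at least 0.5 FPKM (background 4.62% and 3.48%), and 0 members had an unadjusted p below 0.05 in edgeR, against 6.69% of genes higher and 5.43% lower. The median log2 fold change of the 81 genes was -0.06 and that of all tested genes -0.05. Member values ran from -0.29 to 0.15, with a median standard error of 0.18.

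The stalk gene RPLP2 had the highest value here, and was not called. It measured 1662, 1035 and 861 CPM in control and 1433, 1303 and 1212 CPM in TGF-β. The TGF-β libraries lay inside the range of the control libraries, and the log2 fold change was 0.15 ± 0.23 (SE). RPS26 and RPL6 both followed at 0.12. RPL39L had the lowest value, with 133, 83.2 and 71.5 CPM in control and 81.3, 75.3 and 77.9 CPM in TGF-β, and a log2 fold change of -0.29 with an SE of 0.22 (adjusted p = 0.791 in edgeR). Its control replicate 1 was the only library above 100 CPM, and the other 8 lay between 71.5 and 98.3 CPM. RPL13A followed at -0.20 and RPS27L at -0.18. The groups did not overlap for RPL23A, which was higher (1 of 81 members, background 9.72%), and RPL5, which was lower (background 7.96%). Without control replicate 1 the median of the members turned from -0.06 to 0.13, with 0 members called (background then 5.18% higher and 2.75% lower), so the sign of this median rests on that library.

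The comparison of TGF-β + uridine with TGF-β asks what uridine added. Again 0 members were called by edgeR in either direction, where 0% of tested genes were called higher and 0.0448% lower, and DESeq2 called 0 members (background 0.315% and 0.503%), as did limma (2.61% and 1.27%). At an unadjusted p below 0.05, 3 members were lower (RPS27L, RPL31 and RPL5; background 4.14%) and 0 were higher (4.65%). The median log2 fold change was -0.08, against 0.02 for all tested genes, and 64 of 81 members had a value below 0, where 46.6% of all tested genes had one. The median rested in part on single libraries: it was -0.17 without TGF-β + uridine replicate 2, -0.05 without replicate 1 and -0.03 without replicate 3 of that group, and without the last the summed level of the members turned from -0.05 to 0.01. Members move together within a library, so the share below 0 is not made of independent values. The groups did not overlap for 10 members, all of them lower (12.3% of 81), against a background of 12.8% of all tested genes that were lower without overlap. These were RPS27L, RPL31, RPL5, RPL23, RPL7, RPL23A, RPL17, RPS24, RPL6 and RPL22. The share of members that were lower without overlap was thus near the background, and 0 members were higher without overlap (background 12.8%). Without control replicate 1, which belongs to neither group, RPS27L was called lower (1 of 81 members, background 1.26%) and 0 members higher (0.716%).

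RPS10, a small-subunit protein, had the second lowest value, -0.33 ± 0.29 (SE), and rested on few reads. It measured 10.1, 9.71 and 9.28 CPM in TGF-β and 6.67, 10.8 and 5.62 CPM with uridine, so the groups overlapped. RPS24, a small-subunit protein mutated in Diamond-Blackfan anaemia, measured 627, 685 and 679 CPM in TGF-β and 586, 529 and 539 CPM with uridine (log2 fold change -0.27 ± 0.18, adjusted p = 0.797 in edgeR). Its control values, 470, 740 and 812 CPM, spanned both treated groups. The highest values belonged to RPL10 with 0.16 and RPL39L with 0.11.

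The comparison of TGF-β + uridine with control gave the only call among the members in the edgeR model of group over all 9 libraries. RPS27L was lower, 1 of 81 members (1.23%) against a background of 2.44% of tested genes called lower, and 0 members were called higher against 2.89%. DESeq2 called RPS27L and RPL5 lower (2 of 81 members, background 3.69%) and 0 higher (3.82%). At an unadjusted p below 0.05 in edgeR, 5 members were lower (RPS27L, RPL5, RPL31, RPL23 and RPL26; background 8.55%) and 0 higher (9.08%). In these edgeR and DESeq2 counts, the shares of members called were thus below those of all tested genes. With the GC slope of each library, estimated from the same counts, as a covariate, 27.2% of members were called lower (background 13.3%) and 7.41% higher (17.8%). The median log2 fold change was -0.13 for the members and -0.01 for all tested genes, and 69 of the 81 were below 0, where 51.4% of all tested genes were. RPS10 (-0.30) followed RPS27L and RPL5 at the low end, and RPS26 (0.14), RPLP2 (0.09) and RPL26L1 (0.05) stood at the high end. Without control replicate 1 the median became 0.04, 7 members were called lower (8.64%, background 8.16%) and 0 higher (9.48%). The groups did not overlap for 4 members, all lower (4.94%, background 9.2%), namely RPS27L, RPL5, RPL31 and RPL17, and 0 were higher without overlap (10.5%).

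**Figure D4:**
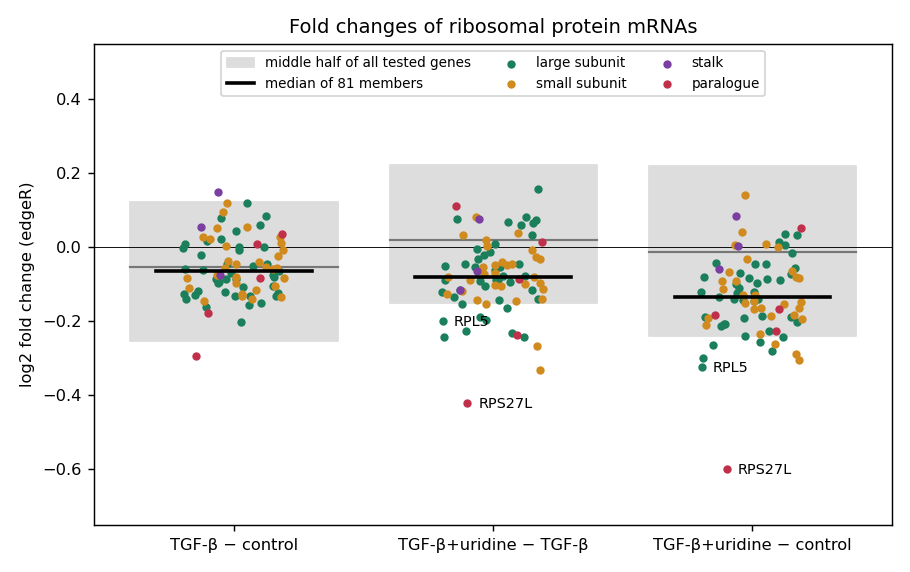
Log2 fold change (vertical, edgeR) of the 81 tested genes in the 3 comparisons (horizontal); points are genes coloured by subunit, the black line is their median, and the grey band and line are the quartiles and median of all 13384 tested genes. Most members lie inside the grey band, with medians of -0.06, -0.08 and -0.13, and RPS27L is lowest in both comparisons with uridine.

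RPS27L encodes a close relative of the small-subunit protein RPS27. It lies on the minus strand at chr15:63125872-63158021 (GRCh38, GENCODE v29). It measured 58.6, 59.6 and 61.2 CPM in control, 49.1, 59.2 and 50.5 CPM in TGF-β and 41.4, 38.3 and 38.9 CPM in TGF-β + uridine. The uridine libraries were all below the other 6, while control and TGF-β overlapped. Against control the level was 0.661-fold, and the log2 fold change was -0.60 with an SE of 0.10 (adjusted p = 0.0108 in edgeR), and lower in 3 of 3 libraries. Against TGF-β it was -0.42 ± 0.10 (adjusted p = 0.261), and for TGF-β against control -0.18 ± 0.10 (adjusted p = 0.613). The exact permutation test of 3 against 3 libraries gave p = 0.1 for both comparisons with uridine, the smallest p it allows. The call held in 14 of 23 other settings, with adjusted p from 2.9e-05 to 0.0919. Among the libraries left out 1 at a time, it was lost without control replicate 2 (0.0567), TGF-β + uridine replicate 2 (0.056) and TGF-β + uridine replicate 3 (0.0588). The log2 fold change stayed between -0.71 and -0.51 in these 23 settings. Unlike most members, RPS27L hardly differed between control replicates 1 and 3 (log2 difference -0.06).

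Set against RPS27 within each library, the contrast was less clear. There were 5.58, 7.83 and 10.1 RPS27L reads per 100 RPS27 reads in control, 5.98, 7.63 and 6.76 in TGF-β and 6.01, 4.59 and 5.88 in TGF-β + uridine. The ranges overlapped between uridine and control (exact permutation p = 0.3), because RPS27 itself ran from 1051 to 606 CPM over the control libraries. RPL26L1 reads per 100 RPL26 reads were 13.1, 11.2 and 11.1 in control, 13.8, 13.3 and 12.5 in TGF-β and 13.8, 16.1 and 13.9 with uridine. The uridine values were above those of both other groups (exact permutation p = 0.1 for each, the smallest possible). RPL39L reads per 100 RPL39 reads were 17.5, 13.9 and 13.5 in control, 12.1, 11.1 and 11.9 in TGF-β and 13.5, 14.1 and 12.5 with uridine. Their TGF-β values were below those of both other groups (exact permutation p = 0.1 for each). For RPL22L1 and RPL7L1 the ratios overlapped in every comparison. These 15 ratio tests cannot pass a threshold of 0.05 at this number of libraries.

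RPL5, which carries the 5S RNA into the large subunit together with RPL11, had the second smallest p against control. It lies on the plus strand at chr1:92831983-92841924. It measured 653, 693 and 709 CPM in control, 629, 647 and 609 CPM in TGF-β and 542, 561 and 540 CPM in TGF-β + uridine. The 3 groups did not overlap with each other. The log2 fold change was -0.32 ± 0.09 for TGF-β + uridine against control (SE, edgeR adjusted p = 0.0686), -0.20 ± 0.09 against TGF-β (adjusted p = 0.552) and -0.13 ± 0.09 for TGF-β against control (adjusted p = 0.752). None passed the threshold in this model. RPL11 measured 1165, 983 and 876 CPM in control, 981, 998 and 1003 CPM in TGF-β and 892, 1001 and 862 CPM with uridine. Its groups overlapped in every comparison.

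RPL31, a protein at the exit of the peptide tunnel, measured 390, 387 and 365 CPM in control, 363, 382 and 357 CPM in TGF-β and 322, 335 and 283 CPM with uridine. The uridine libraries were below all others, and against control the log2 fold change was -0.28 with an SE of 0.10 (adjusted p = 0.151 in edgeR). RPL23 measured 727, 669 and 581 CPM in control, 614, 646 and 640 CPM in TGF-β and 520, 589 and 499 CPM with uridine. It was lower with uridine than with TGF-β in every library, but its control and uridine values overlapped (log2 fold change -0.30 ± 0.11, adjusted p = 0.204 in edgeR). RPL23 also binds MDM2.

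**Figure D5:**
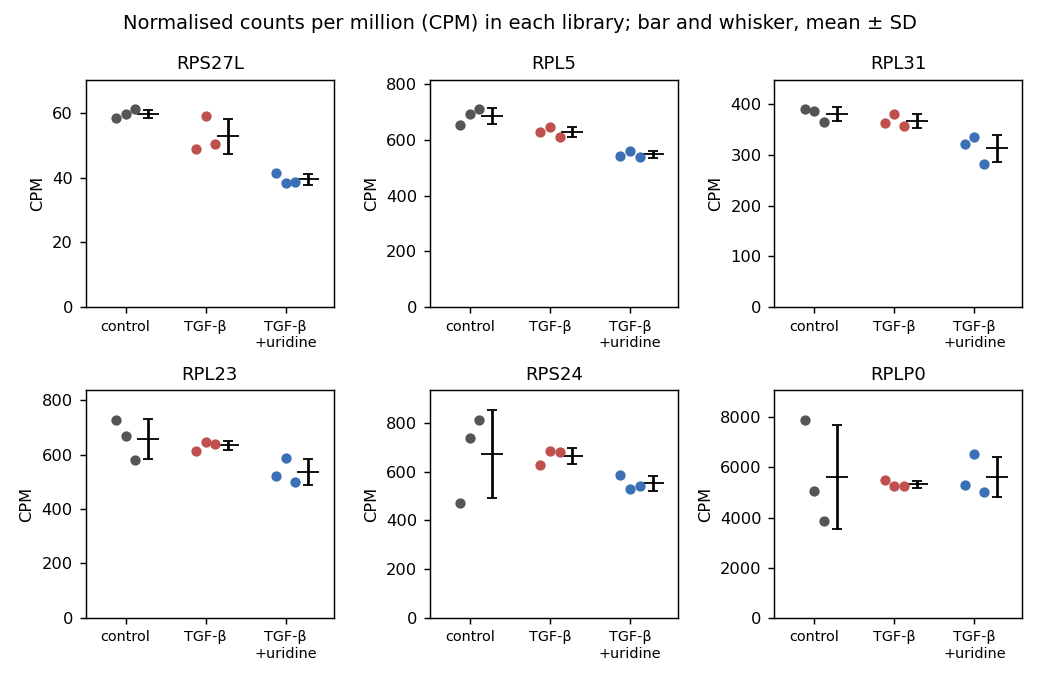
CPM of 6 genes (vertical, from 0) in control, TGF-β and TGF-β + uridine (horizontal); points are libraries, and the bar with whiskers is the mean ± SD of 3. RPS27L, RPL5 and RPL31 are lowest in the 3 uridine libraries, while the control libraries of RPS24 and RPLP0 span the treated ones.

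Members with familiar roles as reference or signal genes differed by less than the control spread. RPLP0, often used to normalise PCR, measured 7889, 5073 and 3854 CPM in control, 5499, 5240 and 5239 CPM in TGF-β and 5317, 6536 and 5015 CPM with uridine. Its log2 fold changes were -0.07, 0.08 and 0.00 for TGF-β against control, uridine against TGF-β and uridine against control, each with an SE of 0.24. RPLP1 gave 0.06, -0.11 and -0.06 in the same order and RPLP2 0.15, -0.07 and 0.09. RPS6, the small-subunit protein that S6 kinases phosphorylate, gave 0.10, -0.05 and 0.04. RPS19, the gene most often mutated in Diamond-Blackfan anaemia, gave -0.04, 0.04 and 0.00. RPS6 had an SE of 0.11 and RPS19 of 0.21.

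When the GC slope of each library entered the edgeR model as a covariate, more genes passed the test everywhere, members included. The slope was estimated from the same counts that were then tested, and the model treats it as known. For TGF-β against control, 3 members were called higher (RPS26, RPLP2 and RPL39; 3.70%, background 11.6%) and 3 lower (RPL39L, RPL5 and RPL13A; 3.70%, background 8.69%). For uridine against TGF-β, 14 members were lower (17.3%, background 9.09%) and 1, RPL10, was higher (1.23%, background 9.99%). For TGF-β + uridine against control, 22 members were lower (27.2%, background 13.3%) and 6 higher (7.41%, background 17.8%). The lower calls were small, with log2 fold changes from -0.60 to -0.10 and a median of -0.16 among the 22. RPS27L (-0.60, adjusted p = 2.9e-05), RPL5 (-0.33, 3.22e-05), RPL23 (-0.28, 0.000285) and RPL31 (-0.27, 0.000998) had the smallest adjusted p of edgeR there. The part of GC content in the results without this covariate was not tested beyond this fit.

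Fold changes were also set out by the TOP tract. For TGF-β + uridine against control, the 46 tested members with a tract at the annotated start had a median log2 fold change of -0.09. The 19 without a tract there had -0.14, and some of these may carry one that begins at another base. The medians were -0.07 and -0.10 for uridine against TGF-β, and -0.06 and -0.05 for TGF-β against control. These are descriptions without a test.

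Genes that work with the ribosomal proteins were read from fixed lists. None of the 4 ribosomal proteins outside the symbol rule, 56 ribosome biogenesis factors, 20 genes of the RNA polymerase I machinery, 22 regulators of TOP translation and ribosome synthesis or 78 mitochondrial ribosomal proteins was called in any comparison by edgeR. At an unadjusted p below 0.05, at most 4 genes of any of these lists passed in a comparison (background 6.69% higher and 5.43% lower for TGF-β against control, 4.65% and 4.14% for uridine against TGF-β, 9.08% and 8.55% for TGF-β + uridine against control). The median log2 fold change for uridine against TGF-β was 0.12 for the biogenesis factors, 0.19 for the RNA polymerase I genes, 0.05 for the regulators and for the mitochondrial ribosomal proteins, and -0.02 for the ribosomal proteins outside the symbol rule. The first 4 of these medians lie on the other side of 0 from the members' -0.08, as does the median of all tested genes, 0.02. With the GC slope covariate, 12 biogenesis factors, 8 RNA polymerase I genes and 16 mitochondrial ribosomal protein genes were called higher in that comparison (background 9.99%) and 1, 0 and 3 lower (background 9.09%). Of the regulators 1 was higher and 1 lower, of the ribosomal proteins outside the rule 0 and 0, and of the translation factors and other TOP RNAs 0 and 4. Of 25 translation factors and other TOP RNAs, 1 was called by edgeR: GAS5, a non-coding TOP RNA that hosts small nucleolar RNAs. It was lower in TGF-β + uridine than in control, where 2.44% of all tested genes were called lower. It measured 105, 92.3 and 85.3 CPM in control, 91.8, 92.9 and 92.8 CPM in TGF-β and 57.9, 62.0 and 57.1 CPM with uridine (log2 fold change -0.68 ± 0.10 SE, edgeR adjusted p = 0.00577).

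Among 25 short housekeeping genes outside the ribosome, 0 were called in any comparison by edgeR, and at an unadjusted p below 0.05 there were 1, 1 and 2, against the same backgrounds as for the other lists. With the GC slope covariate, 9 of them were called higher and 5 lower for TGF-β against control (background 11.6% and 8.69%), 1 and 5 for uridine against TGF-β (9.99% and 9.09%), and 7 and 4 for TGF-β + uridine against control (17.8% and 13.3%). In the comparison of uridine with TGF-β, the members (14 of 81 lower) and these genes (5 of 25 lower) were thus both above the background of 9.09%.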

How the data were processed

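RNA of LX-2 cells was analysed in 9 libraries, 3 in each of the control, TGF-β and TGF-β + uridine groups, assigned from the sample labels. The authors deposited a table of raw read counts per gene symbol and a table of FPKM values, which equal the counts divided by the library total and 1 length per gene. The submitters' processing notes name fastp, HISAT2, HTSeq and R 3.2.0 and the build GRCh38.p13; the annotation and the treatment of shared reads are not given in the sources used here. The 2 tables list 20777 genes, and all of their sample columns were used.

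The quasi-likelihood test of edgeR 4.0.16 (R 4.3.3) was run on the counts after filterByExpr and TMM scaling, in 1 model of group over all 9 libraries. Of the listed genes, 13384 (64.4%) were tested, and p-values were two-sided and adjusted over all of them by the Benjamini-Hochberg method. The common biological coefficient of variation was 0.289. Single values were compared by two-sided exact permutation tests. Replicates of a group differed by more than counting noise (mean chi-square per gene 4.73 to 418 over 9639 genes, where counting noise alone gives about 1), so all were kept as separate samples.

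The alternatives were DESeq2 1.42.0, RLE and upper-quartile scaling, library totals only, other count filters, only the compared groups, a replicate block, the GC slope of each library as a covariate, block and covariate together, gene length offsets, limma 3.58.1 on log2(FPKM + 1) or log2(FPKM + 0.1), a minimum log2 fold change of 1, and each library left out. GENCODE v29 (GRCh38) gave coordinates, and GC content for 92% of tested genes and all 83 members by symbol. Start sites come from RefSeq. The tests were also run on simulated counts, with an outcome not reported here. These counts held no GC differences between libraries and no change between uridine and TGF-β.

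Members, gene lists, settings and the rule for named genes were chosen with earlier results of these data known. Given in full were called members, the 3 highest and lowest fold changes of each comparison, the stalk genes, paralogues with the genes they resemble, RPS6, RPS19, RPL5 and RPL11, and the highest and lowest levels. RPL31, RPL23, RPL17 and RPL23A fall outside this and were picked once their values were known. From the lists, called genes were named. Some items that these rules name are not reported here.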

Additional observations from a re-analysis of the deposited data

How the results depend on the processing

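Of 243 alternative values of the counts, medians and summed levels of members, 25 moved beyond the limit set for them (1.5 times for a count, 1 SD between libraries, 0.216 and 0.239 log2 units, for a median and a summed level), all of them counts of called members. Of the 99 alternative medians and summed levels, 5 changed sign. Without control replicate 1 the median turned from -0.06 to 0.13 and the summed level from -0.06 to 0.17 for TGF-β against control, and from -0.13 to 0.04 and from -0.12 to 0.12 for TGF-β + uridine against control. Without TGF-β + uridine replicate 3 the summed level for uridine against TGF-β turned from -0.05 to 0.01. With the GC slope covariate, members called higher and lower were 3 and 3 for TGF-β against control (background 11.6% and 8.69%), 1 and 14 for uridine against TGF-β (9.99% and 9.09%), and 6 and 22 for TGF-β + uridine against control (17.8% and 13.3%). With this covariate and the replicate block together they were 1 and 2 (background 10.1% and 7.39%), 1 and 11 (8.04% and 7.44%), and 3 and 17 (16% and 12.1%). For uridine against TGF-β, only the compared groups in the model gave 1 lower member (background 1.35%). For TGF-β + uridine against control, members called lower numbered 2 with DESeq2 (background 3.69%), 3 with library totals only (4.25%), 0 with only the compared groups (0.558%), 0 with gene length offsets (2.36%), 3 with limma on log2(FPKM + 1) (5.71%) or log2(FPKM + 0.1) (5.62%) over genes with a mean of at least 0.5 FPKM, 1 (RPL23) with limma on log2(FPKM + 1) over all genes (2.63%), and 0 with a log2 fold change of at least 1 (1.31%). The sets of 3 from limma and from library totals included RPL23 and RPL9 but not RPS27L, whose adjusted p was then 0.0513, 0.0504 and 0.0505. The cause was not tested.

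With single libraries left out, members called lower ranged from 0 to 1 for uridine against TGF-β and from 0 to 7 for TGF-β + uridine against control. The 7 arose without control replicate 1 (RPS27L, RPS24, RPL5, RPL26, RPL7L1, RPL7 and RPL22; background 8.16%), and 0 without control replicate 2 or TGF-β + uridine replicates 2 or 3. The median log2 fold change ranged from -0.19 to 0.13 for TGF-β against control, -0.17 to -0.03 for uridine against TGF-β and -0.25 to 0.04 for TGF-β + uridine against control. The summed level ranged from -0.22 to 0.17, -0.15 to 0.01 and -0.27 to 0.12 log2 units. Same-numbered libraries of different groups correlated from -0.21 to 0.56, and differently numbered ones from -0.66 to 0.63. These values gave no sign that the numbers pair the libraries. They cannot exclude a pairing, since both ranges are wide. The replicate block alone gave 0, 0 and 0 members higher (background 1.83%, 0% and 1.91%) and 0, 0 and 1 lower (0.516%, 0% and 1.35%), the last RPS27L with an adjusted p of 0.0425.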
